A study of Homo sapiens with 8 samples.

Results

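The barcode populations SBO01 and SBO12 of a mammary epithelial culture each held cells of 2 kinds of expression, called state A and state B here. The cells were HMLE, an immortalised human mammary epithelial line that turns mesenchymal under TGF-β. The series set out to find intermediate states of that shift and to ask what G-quadruplex DNA does in it, with the G-quadruplex ligand pyridostatin. There were 12 samples, each marked with 1 short barcoded oligonucleotide (SBO), which were sequenced in 4 mRNA libraries by 10x Genomics 5′ chemistry with 4 matching barcode libraries. Libraries 1 and 2 carried SBO01 and libraries 3 and 4 carried SBO12, as repeat loads of 2 pools. The labels do not say which culture, treatment, dose or time either barcode marks, so neither population is called treated or untreated, and each barcode stands for 1 sample. Population and pool cannot be told apart, and p-values over the 4 libraries measure spread between loads and between the pools, not between replicate cultures.

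The states were chosen by measured values. Of 22147 cells kept in all libraries, 11072 had 1 assigned barcode and 2945 of those had SBO01 or SBO12. In each such cell the UMIs (unique molecular identifiers, counts of captured molecules) of 9 genes were added up. State A needed at least 3 UMIs over SPP1, FST, MT1G, PTGS1 and TNFRSF6B and at least 2 times the UMIs of the other set. State B needed at least 3 UMIs over SFTA1P, CYP1B1, RAB38 and STON2 and at least 2 times the UMIs of the first set. This gave 2194 members, 1679 in state A and 515 in state B. State A had 572, 448, 357 and 302 cells in libraries 1 to 4, and state B had 142, 138, 127 and 108. Of the others, 570 cells carried both sets without either reaching the ratio and are called mixed, and 181 had too few UMIs of both and are called low. Only 2 cell barcode strings of members occurred in more than 1 library, and they were treated as different cells.

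Assignment rested on 2 barcodes of 15 bases, shown because one of them was weak in these data. The oligonucleotides have the same base at 6 of their 15 positions.
SBO01: ggacgcaacttaaga
SBO12: agagctaggatcgga

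Cells of SBO01 carried a median of 485.5 and 536 UMIs of their barcode in state A of libraries 1 and 2, and 199 and 252.5 in state B. Cells of SBO12 carried 40 and 41.5 in state A of libraries 3 and 4, and 27 and 29 in state B. Another barcode had more UMIs than the assigned one in 4.90 and 2.01% of state A cells of SBO01 and in 8.45 and 5.07% of its state B cells. In SBO12 the same held for 56.0 and 59.6% of state A and for 70.1 and 81.5% of state B. State B was thus the less securely assigned state in all 4 libraries, and counts of the main gene groups are also given for cells whose own barcode was highest.

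Basal epithelial cells of the breast lie against the basement membrane, express keratins 5, 14 and 17 with the transcription factor p63 and integrins α6 and β4, and are the cells that HMLE cultures mostly resemble. In the epithelial-to-mesenchymal transition such cells lose junctions and gain vimentin, collagens and factors such as TWIST1 and SNAI2. Epithelial cells can also move the other way, towards squamous differentiation, with calprotectin (S100A8 and S100A9), small proline-rich proteins and desmosomal genes.

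Basal markers were found in both states. After each cell was thinned to 10000 UMIs, KRT5 was found in 99.1% of 1386 state A cells and 99.7% of 354 state B cells, against 31.6% of 1726 cells of SBO05, the population of strongest mesenchymal expression. KRT14 was found in 98.3 and 98.6% against 44.1%, and S100A2 in every cell of both states against 90.2%. TP63, the gene of p63, was found in 20.6 and 18.6% against 0.637%. Basal identity genes gave no single direction between the states, with 6 of 24 tested members higher in A and 8 higher in B. Per thinned cell the 25 listed genes had medians of 195, 194, 188 and 191 UMIs in A and 213, 230, 234 and 251 in B. Other populations apart from SBO05 ran from 69 in SBO10 to 100 in SBO08. Luminal identity genes were present too, summing to 9127 to 9725 CPM in A and 7210 to 8028 in B. Basal identity genes summed to 19212 to 20288 and 21552 to 25011. The leukocyte genes PTPRC, CD3E, LYZ, TYROBP and NKG7 and the endothelial gene PECAM1 had 0 UMIs in all sums of both states. Leukocyte and endothelial markers summed to at most 0.956 CPM (UMIs per 1000000 UMIs of the summed cells) in any library.

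The genes of the gate are described without a test, since they chose the cells. SPP1, the secreted matrix protein osteopontin, averaged 19.8 CPM in A and 0.96 in B. FST, the activin antagonist follistatin, averaged 160 and 18.3 CPM, and TNFRSF6B, a decoy receptor for FAS ligand, 205 and 25.6. MT1G, a metallothionein that binds zinc and copper, stood at 370, 394, 96.6 and 80.4 CPM in state A of libraries 1 to 4, so it was far higher in SBO01 than in SBO12. CYP1B1, a cytochrome of xenobiotic and oestrogen metabolism, averaged 15.5 CPM in A and 187 in B, and RAB38, a small GTPase of melanosome transport, 57.6 and 119. PTGS1, a cyclooxygenase, averaged 61.4 and 21.4 CPM, and STON2, an endocytic adaptor, 16.7 and 29.2. SFTA1P, a long noncoding transcript, averaged 13.9 CPM in A and 31.7 in B.

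When each gate gene was left out in turn and the cells were gated on the other 8, the omitted gene kept its direction in 4 of 4 libraries for all 9 genes. The gate was chosen with earlier results of these data known, so this describes the gate and is no independent test of the states. The A to B ratio was 6.23 for SPP1, 2.07 for FST, 2.60 for MT1G, 2.04 for PTGS1 and 2.69 for TNFRSF6B. The B to A ratio was 4.75 for CYP1B1, 1.91 for SFTA1P, 1.41 for RAB38 and 1.33 for STON2. RAB38 and STON2 thus followed the other genes least among those of state B. The gate cuts a range of values rather than a class with an edge. Of the state A cells 36 had exactly 3 UMIs of the A set, and of the state B cells 26 had exactly 3 of the B set, while 70 low cells reached 2 in their larger sum. Within 1 UMI of the ratio lay 176 state A cells and 100 state B cells. State A cells had a median of 17 UMIs of their own set and 3 of the other, and state B cells had 10 and 2. At least 3 genes of their own set were present in 83.0% of state A and 68.35% of state B cells.

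State A made up 59.4% of SBO01 cells (exact 95% interval 57.0 to 61.7) and 53.7% of SBO12 cells (50.9 to 56.5). State B made up 16.3% (14.6 to 18.1) and 19.2% (17.0 to 21.5). These intervals cover counting error only. There were 3.64 state A cells per state B cell in SBO01 and 2.80 in SBO12, and in the other 10 populations the same gate gave 1.32 to 2.92. SBO03 had the 2.92, above SBO12, so the ratio did not set the pair apart from all others. Shares depended on depth: in thinned cells state A fell to 54.1 and 42.7% and state B to 12.9 and 12.2%. The plot of shares by barcode population shows the 2 populations at its ends.

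**Figure D1:**
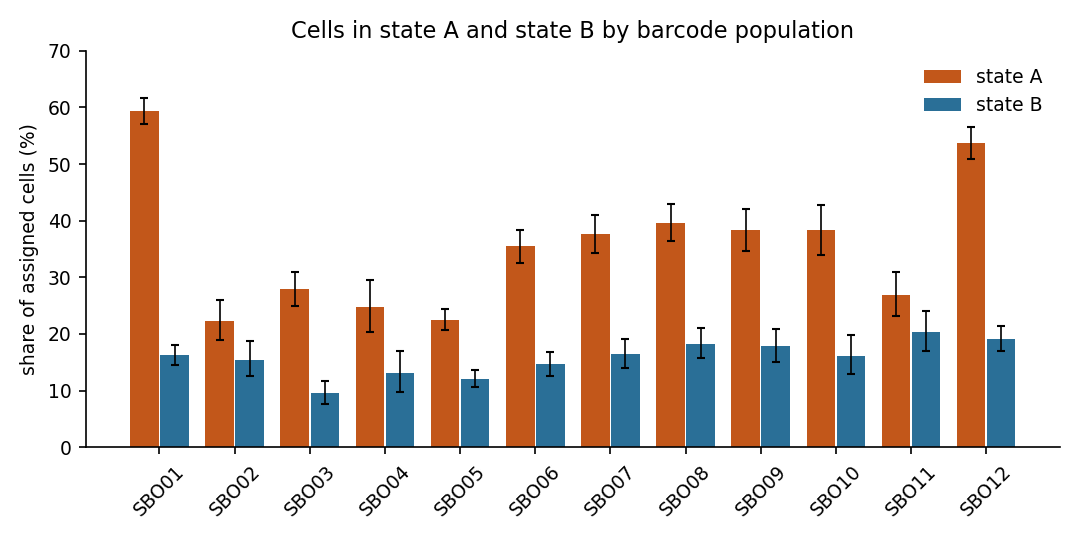
Share of assigned cells in state A (orange) and state B (blue) in each of the 12 barcode populations, in percent, with exact 95% binomial intervals as bars. State A reaches 59.4% in SBO01 and 53.7% in SBO12, while state B stays at 20.4% or below in every population.

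Depth and RNA quality moved with the states. State A cells had more UMIs than state B cells in 4 of 4 libraries, with medians of 26409, 32534.5, 32345 and 42126.5 against 22152, 27268, 30347 and 38388. The mitochondrial share was lower in A in 4 of 4 libraries, with a mean of the medians of 1.80 against 2.22%. Each of these differences had p = 0.125 in an exact two-sided sign-flip permutation test over 4 libraries, the smallest p that design allows. The sums that were tested held 11331836 to 15953905 UMIs for state A and 3409025 to 4184908 for state B, so values of state B are the less precise.

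Across 12340 tested genes outside the gate, edgeR's quasi-likelihood test, which compared the states within libraries and used Benjamini-Hochberg adjustment, called 2422 genes higher in A (19.6% of those tested) and 2364 higher in B (19.2%). A change of at least 1 on the log2 scale was called for 163 genes higher in A (1.32%) and 218 higher in B (1.77%). Of these 381 genes, 365 had the same direction in every library and 331 had no overlap between the 4 values of A and the 4 of B. Both counts follow in large part from choosing genes by large changes in the same sums. Of all 4786 called genes, 4407 had the same direction in every library. The share of all tested genes without overlap is not given here. Taken within each population alone, 162 of the 163 genes were higher in A in both SBO01 and SBO12, and 211 of the 218 were higher in B in both. The genes were chosen over the same libraries, and 107 of the 163 and 138 of the 218 passed in both populations alone. Since so many genes passed, each gene group is read against 19.6 and 19.2%. In cells whose own barcode was highest, 1490 and 1383 of 11507 genes were called higher in A and in B. Without the replicate block these counts were 1737 and 1793 of 12340, and with MT1G left out of the gate 2449 and 2285 of 12298. List counts under such an alternative are to be read against its own counts. The 39 lists hold 768 genes, of which 647 were tested.

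DKK1, a secreted antagonist of WNT signalling, had the largest rise in A among the genes named by the rule of at least 20 CPM. Its level was 197, 209, 149 and 177 CPM in state A of libraries 1 to 4 and 41.7, 47.8, 35.0 and 39.7 in state B. The lowest A value was over 3 times the highest B value, and the log2 fold change was 2.18 ± 0.06 (SE, edgeR adjusted p = 1.1e-17). SRGN, the proteoglycan serglycin, stood at 58.3, 54.6, 54.4 and 55.8 CPM against 14.1, 19.7, 14.7 and 8.36. It was even across the libraries of A and varied in B, with a log2 fold change of 2.00 ± 0.12. CCND2, cyclin D2, was higher in A at 282 ± 19.3 CPM (SD, n = 4 libraries) against 124 ± 8.26, a log2 fold change of 1.21. TGM2, a transglutaminase that crosslinks matrix proteins, was at 49.5 ± 4.47 against 21.5 ± 1.63 CPM, and PDPN, the membrane mucin podoplanin, at 32.8 ± 4.37 against 11.4 ± 3.41. MEST, BCAT1, CYGB and FKBP11 were also higher in A, by 1.13 to 1.37 on the log2 scale, with no overlap between the states.

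**Figure D2:**
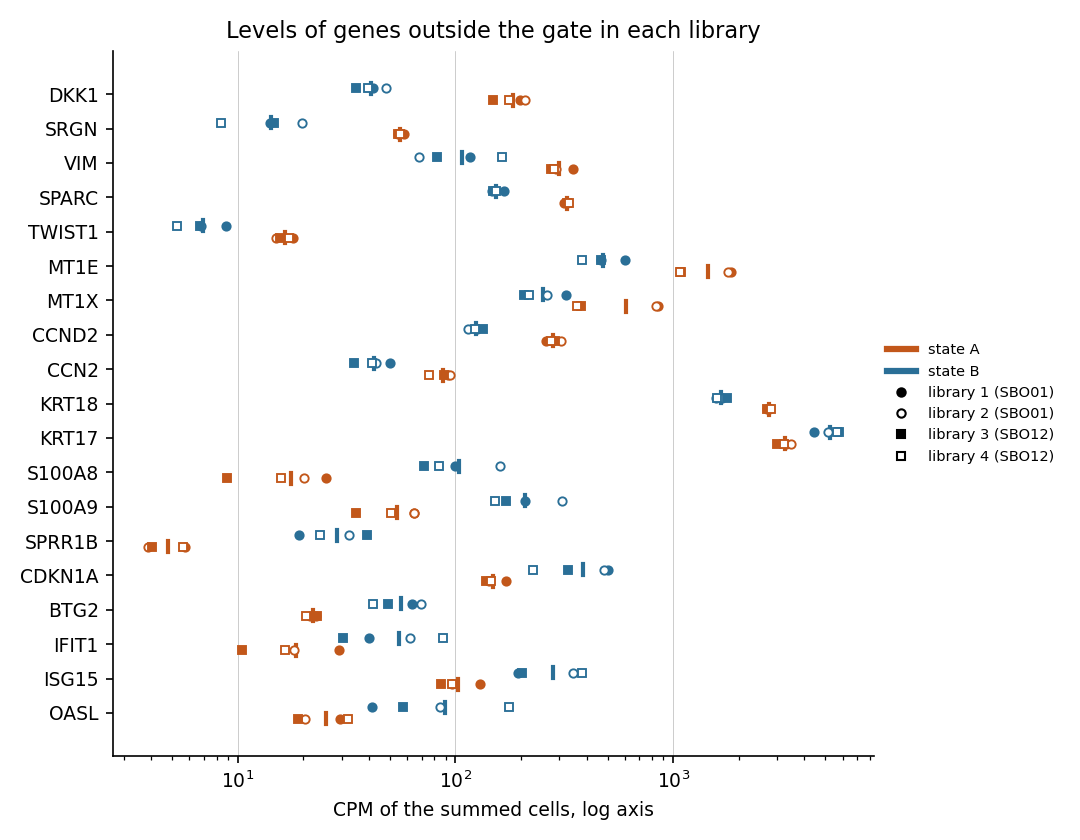
Levels of 19 genes outside the gate as CPM of the summed cells on a log axis, for state A (orange) and state B (blue) in each library; circles are SBO01 (library 1 filled, library 2 open), squares SBO12 (library 3 filled, library 4 open), and vertical ticks are means of 4 libraries. DKK1 lies at 149 to 209 CPM in A and 35.0 to 47.8 in B, and S100A8 at 8.91 to 25.4 in A and 71.6 to 160 in B.

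Mesenchymal genes were higher in A as a group, but this depended in part on MT1G in the gate. Of 15 tested, 10 were higher in A and 1, TAGLN, was higher in B, with a median log2 fold change of 1.23 beside −0.01 over all genes. VIM, vimentin, stood at 348, 290, 275 and 285 CPM in A and at 116, 68.2, 82.5 and 163 in B. The states did not overlap, and the log2 fold change was 1.52 ± 0.11 (edgeR adjusted p = 5.7e-10). SPARC, a matrix glycoprotein, was at 324 ± 6.85 against 154 ± 9.13 CPM, and THY1, a surface glycoprotein of stromal cells, at 50.9 ± 2.47 against 17.4 ± 4.92. FN1, fibronectin, was 550 ± 73.4 against 556 ± 103 CPM and was not called. Per thinned cell the 22 listed genes had medians of 12, 12, 11 and 10 UMIs in A and 7.5, 7, 7 and 7 in B, against 59 in SBO05. State A was therefore far below the mesenchymal level of SBO05. Medians of the remaining populations ran from 10 in SBO09, 11 in SBO10 and 12 in SBO11 up to 38 in SBO03. All cells of SBO01 and SBO12 had medians of 11 and 9. State A was thus about level with the lowest of the other populations, and state B was below them.

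With MT1G left out of the gate, 7 of 16 mesenchymal genes were higher in A and 6 higher in B, with a median of 0.26. VIM then stood at a log2 fold change of 0.72 and THY1 at 1.00, both still called by edgeR. The collagen genes COL6A1 and COL6A2, singled out after their values were seen, went from 1.57 and 2.11 to −1.76 and −1.55 under that gate. They are among the 10 genes counted higher in A with the full gate and among the 6 counted higher in B without MT1G. In thinned cells MT1G was also found in 31.3% of SBO05 cells, against 64.0% of state A and 11.6% of state B. In cells whose own barcode was highest, 7 of 13 mesenchymal genes were higher in A and 1 in B, with a median of 1.07, and VIM had a log2 fold change of 1.49. The part of cells of other populations in the mesenchymal difference was not tested.

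EMT transcription factors went the same way, with 5 of 8 tested higher in A and 1 in B (3 and 1 of 7 in cells whose own barcode was highest). TWIST1 was at 16.5 ± 1.37 CPM in A and 6.89 ± 1.46 in B, and HMGA2, an architectural chromatin factor, at 66.8 ± 10.0 against 35.4 ± 5.47. SNAI2 was at 30.1 ± 0.634 against 19.5 ± 0.824 CPM, but it did not pass in thinned cells, where its log2 fold change was 0.33. YAP targets were higher in A for 9 of 16 and in B for 1, with CCN2 at 87.6 ± 8.15 against 42.3 ± 6.61 CPM and AXL, a receptor tyrosine kinase, at 47.2 ± 4.75 against 23.5 ± 3.21. Without the replicate block 5 of the 16 passed as higher in A, and in cells whose own barcode was highest 6 did. THBS1, thrombospondin 1, was at 430, 562, 300 and 281 CPM in A and 265, 257, 142 and 97.3 in B. It was lower in SBO12 in both states, and A was above B within each library, with a log2 fold change of 1.11 ± 0.07. DUSP6 and DUSP5, phosphatases induced by MAP kinase signalling, had log2 fold changes of 1.08 and 0.83.

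Metallothioneins, small proteins that store zinc and copper, were higher in A beyond the gated MT1G. Their genes are near-identical copies in 1 cluster on chromosome 16, so reads could be divided among them in the authors' counting and values of single members are uncertain. MT1E (chr16:56625475-56627112 on hg38 in GENCODE 29) stood at 1838, 1782, 1080 and 1079 CPM in A and 598, 466, 467 and 381 in B. MT1X (chr16:56682424-56684196) stood at 855, 834, 378 and 363 against 320, 262, 207 and 217 CPM. Both were higher in SBO01 than in SBO12, and in both the states did not overlap. MT2A, the most abundant member, was at 7544 ± 420 against 5172 ± 799 CPM, a log2 fold change of 0.58 ± 0.06. Over the whole list of metal genes, 6 of 12 tested were higher in A and 1 in B. With MT1G out of the gate the log2 fold change of MT1E fell from 1.59 to 1.01, that of MT1X from 1.22 to 0.69 and that of MT1M from 1.64 to 0.49, and all 3 still passed.

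Metallothionein promoters carry metal response elements, the sites of the zinc-sensing factor MTF1. The 250 bases before the start of MT1X and MT2A are shown because both genes moved with MT1G, which had no match in the promoter table used. Bases are from RefSeq on GRCh38.p14, plus strand, with matches to the element's core TGCNCNC on either strand in capitals. MT1X spans chr16:56682220-56682469 and MT2A chr16:56608334-56608583.
MT1X: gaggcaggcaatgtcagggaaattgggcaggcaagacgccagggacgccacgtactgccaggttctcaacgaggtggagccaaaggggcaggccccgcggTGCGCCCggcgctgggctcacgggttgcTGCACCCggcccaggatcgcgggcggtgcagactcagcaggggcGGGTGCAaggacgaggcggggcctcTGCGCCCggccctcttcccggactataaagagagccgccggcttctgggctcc
MT2A: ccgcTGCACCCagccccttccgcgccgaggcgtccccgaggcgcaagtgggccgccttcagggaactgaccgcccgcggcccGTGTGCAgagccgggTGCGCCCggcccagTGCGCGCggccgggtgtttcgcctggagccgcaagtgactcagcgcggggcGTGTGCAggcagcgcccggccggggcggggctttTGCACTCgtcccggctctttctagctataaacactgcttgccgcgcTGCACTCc

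There were 4 matches before MT1X and 7 before MT2A. At least 1 match was present in 49.1% of all 35116 promoter windows of that length. How many windows hold several matches was not counted. Of the 14 metal genes on the list, 9 had a window, and 6 of their 12 windows held a match, close to the share among all windows. A match describes letters and not binding.

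Squamous genes had the largest median shift towards B among the gene lists, though interferon-stimulated and mitochondrial genome lists had slightly larger shares called higher in B. Of 19 tested, 14 were higher in B and 1 in A, with a median log2 fold change of −1.13. In cells whose own barcode was highest 11 of 17 were higher in B and 0 in A by edgeR's test, with a median of −1.03. S100A8 (chr1:153390032-153391188), a calcium-binding subunit of calprotectin, stood at 25.4, 20.1, 8.91 and 15.9 CPM in A and 99.7, 160, 71.6 and 84.4 in B. S100A9 (chr1:153357854-153361027), its partner, stood at 64.2, 64.7, 35.0 and 50.6 against 208, 308, 171 and 151 CPM. Every B value was above every A value for both, and the log2 fold changes were −2.53 ± 0.12 and −1.93 ± 0.08 (edgeR adjusted p = 3.8e-13 and 2.0e-13). SPRR1B, a precursor of the cornified envelope whose sequence is close to that of SPRR1A, was at 4.81 ± 0.977 against 28.7 ± 8.99 CPM. S100A7 was low in both states, at 1.12 ± 0.516 against 10.1 ± 11.5 CPM, with 26.9 of B in library 2. Per thinned cell the 29 listed genes had medians of 6, 6, 5 and 5 UMIs in A and 9, 11, 8 and 8 in B, so the shift was seen in the middle cell and not only in a few. SLPI and LCN2, secreted defence proteins of epithelium, were higher in B by 1.25 and 1.14 on the log2 scale, as were CRABP2, a retinoic acid carrier, by 1.49 and SERPINB1, an elastase inhibitor, by 1.51.

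Junction genes were higher in B for 12 of 22 and in A for 2. PKP1, the desmosomal plaque protein plakophilin 1, was at 33.9 ± 1.18 CPM in A and 67.2 ± 7.03 in B. The desmocollins DSC2 and DSC3 both had log2 fold changes of −0.72, and the tight junction genes OCLN and CLDN7 of −0.69 and −0.61. Keratins divided between the states. KRT17 stood at 3290, 3467, 2989 and 3235 CPM in A and 4433, 5117, 5781 and 5631 in B, without overlap. KRT14 was at 2191 ± 182 against 2869 ± 333 CPM, and DESeq2 did not call it; both genes have near-identical pseudogenes and are uncertain to that extent. KRT18, a luminal and simple-epithelial keratin, went the other way, at 2744 ± 64.3 CPM in A against 1652 ± 83.1 in B, and KRT7 did too, at 2933 ± 240 against 2140 ± 179. KRT86, at 29.4 ± 7.98 against 87.6 ± 26.1 CPM, overlaps KRT7 in the annotation and resembles other hair keratins, so its reads may not all be its own. Luminal genes as a list were not of 1 direction, with 4 of 17 higher in A and 8 in B.

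Interferon-stimulated genes, which encode antiviral proteins and their sensors, were higher in B for 23 of 31 tested and in A for 0 by edgeR's test. At an unadjusted p under 0.05 these counts were 27 and 0, and DESeq2 called 21 and 0. The median log2 fold change was −0.57. IFIT1 (chr10:89392546-89406486), which binds foreign RNA ends, stood at 29.3, 18.1, 10.5 and 16.4 CPM in A and 40.2, 61.9, 30.3 and 87.5 in B. ISG15, a ubiquitin-like modifier, stood at 130, 96.7, 86.0 and 96.5 against 193, 347, 203 and 382 CPM. Every B value was above every A value for both genes, but B varied widely between libraries. OASL, an antiviral RNA-binding protein, was at 29.6, 20.5, 18.9 and 32.3 CPM in A and 41.4, 84.5, 57.7 and 175 in B, with a log2 fold change of −1.73 ± 0.17. IFIT2, IFIT3, IFI44, DDX60 and DDX58, the gene of the RNA sensor RIG-I, had log2 fold changes of −1.41 to −1.99. Without library 2, 20 of the 31 genes passed as higher in B and the list's median was −0.39, the smallest of those with 1 library left out.

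Cells with many such UMIs stood further apart than the middle cell. Per thinned cell, 28 of the listed genes (without HLA genes and B2M) had medians of 3, 3, 2 and 3 UMIs in A and 5, 6, 4 and 3 in B. The 90th percentiles were 11.5, 9, 7 and 7 in A and 22.8, 29.8, 17.7 and 17 in B. Over all cells of the other populations the medians ran from 5 in SBO05 and 6 in SBO09 and SBO10, about level with state B, through 10.5 in SBO11 and 18 in SBO06 to 26, 35 and 39 in SBO02, SBO03 and SBO04 and 34 and 23 in SBO07 and SBO08. In cells whose own barcode was highest, the medians were 3 and 2 in A of SBO01 and SBO12 and 5 and 5 in B, and 20 of 29 genes were higher in B with 0 in A by edgeR's test (26 and 0 at an unadjusted p under 0.05, median log2 fold change −0.82). That median was larger in size than the −0.57 in all cells of the states, but it was taken over 29 genes in place of 31. State B of SBO12 held only 44 thinned cells in that subset. The part of RNA or doublets from the other populations in this result was not tested.

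Interferon-stimulated response elements are the sites at which the factor ISGF3 binds when interferon signals. The windows of IFIT1 and ISG15 are printed because the genes rose together in B, with matches in capitals. A match is GAAA, any 2 bases and GAAA on either strand, and overlapping matches run together. They are the 250 bases before each start in RefSeq on GRCh38.p14, plus strand, chr10:89392373-89392622 and chr1:1013247-1013496.
IFIT1: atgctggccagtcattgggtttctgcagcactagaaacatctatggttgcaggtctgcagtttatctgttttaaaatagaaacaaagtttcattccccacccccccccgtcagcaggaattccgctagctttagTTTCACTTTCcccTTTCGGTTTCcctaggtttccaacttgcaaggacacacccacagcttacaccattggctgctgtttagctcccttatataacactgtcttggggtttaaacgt
ISG15: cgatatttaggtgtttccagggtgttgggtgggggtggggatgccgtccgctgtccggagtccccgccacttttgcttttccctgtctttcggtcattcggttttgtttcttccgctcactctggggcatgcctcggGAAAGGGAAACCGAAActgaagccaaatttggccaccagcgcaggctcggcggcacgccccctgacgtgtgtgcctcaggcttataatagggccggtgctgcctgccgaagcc

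Each window held 2 matches. Of the 32 listed genes, 23 had a window, and 18 of their 32 windows (56.25%) held a match, against 3.02% of all 35116 windows. The match is a description of the list, which was assembled from genes known to respond to interferon.

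Targets of p53, the transcription factor of the DNA damage response, were higher in B for 16 of 22 and in A for 2, with a median log2 fold change of −0.45. In cells whose own barcode was highest the counts were 12 and 1 of 21, with a median of −0.40. CDKN1A, the cell cycle inhibitor p21, stood at 170, 143, 138 and 145 CPM in A and 499, 483, 330 and 226 in B. The states did not overlap, B was highest in both libraries of SBO01, and the log2 fold change was −1.30 ± 0.10 (edgeR adjusted p = 6.3e-10). BTG2, an antiproliferative gene, was at 22.1 ± 1.24 against 55.9 ± 12.7 CPM. MDM2, which targets p53 for degradation, stood at 28.6, 25.2, 22.2 and 18.6 CPM in A and 68.9, 77.2, 33.8 and 20.8 in B, so the states overlapped and in library 4 were nearly level. GDF15, a stress cytokine, stood at 6.46, 1.77, 2.21 and 2.92 CPM in A and 26.7, 40.3, 3.73 and 2.63 in B. Its log2 fold change of −2.34 came from SBO01, at −3.02, while it was −0.30 and not called in SBO12 alone, and DESeq2 did not call it over both. Per thinned cell, the 22 listed genes had medians of 10, 11, 9 and 10 UMIs in A and 11, 14, 9 and 10 in B. The middle cell of SBO12 therefore showed no difference over the list, while its 90th percentiles were 14 and 15 in A and 18 and 16 in B.

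Cell cycle lists went in 2 directions. Genes of G2 and M phase were higher in A for 17 of 28 and in B for 1, with PLK1, a mitotic kinase, at 183 ± 13.4 against 128 ± 10.6 CPM and CDK1 at 123 ± 7.62 against 87.3 ± 4.21. In cells whose own barcode was highest the counts were 6 and 3 of 28 with a median log2 fold change of 0.05 in place of 0.17, and without the replicate block they were 10 and 1. The medians per thinned cell were 32, 33.5, 37.5 and 37 UMIs in A and 33.5, 24, 19 and 28 in B, so library 1 did not show the difference. S phase genes were higher in B for 11 of 26 and in A for 2, with PCNA, the polymerase clamp, at 223 ± 9.88 against 356 ± 10.8 CPM and E2F1 at 24.1 ± 0.33 against 46.6 ± 4.53. Among cells of lower cycling share, an alternative chosen after the data were seen, the S phase counts were 7 in each direction. Of all 11271 genes tested in that alternative, 1856 were called higher in A and 1840 higher in B. In cells whose own barcode was highest the S phase counts were 8 in B and 1 in A.

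Genes of the integrated stress response, which adapts translation and amino acid supply, were higher in A for 13 of 20 and in B for 2 (10 and 1 in cells whose own barcode was highest). DDIT4, an inhibitor of mTOR signalling, was at 276 ± 15.2 against 165 ± 12.1 CPM. SHMT2 and PSAT1, enzymes of serine and one-carbon metabolism, had log2 fold changes of 0.65 and 0.53. The genes of the mitochondrial genome were higher in B for 10 of 13 and in A for 0 by edgeR's test (10 and 0 at an unadjusted p under 0.05 and by DESeq2), with MT-CYB at 1577 ± 71.8 CPM in A against 2080 ± 74.0 in B, in parallel with the larger mitochondrial share of state B cells. Of 14 immediate early genes 9 were higher in B and 3 in A (6 and 2 in cells whose own barcode was highest), with JUNB at 124 ± 5.95 against 185 ± 9.20 CPM. Of 20 inflammatory cytokine genes 10 were higher in B and 2 in A (7 and 2 of 18 in those cells), among them IL32, at 20.6 ± 4.75 against 64.8 ± 12.8 CPM. In the Notch pathway 6 of 12 were higher in B and 3 in A: the receptor NOTCH1 had a log2 fold change of −1.24 and the ligand DLL1 one of 1.53, while the target HES4 was at 11.7 ± 1.63 against 30.0 ± 5.81 CPM.

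**Figure D3:**
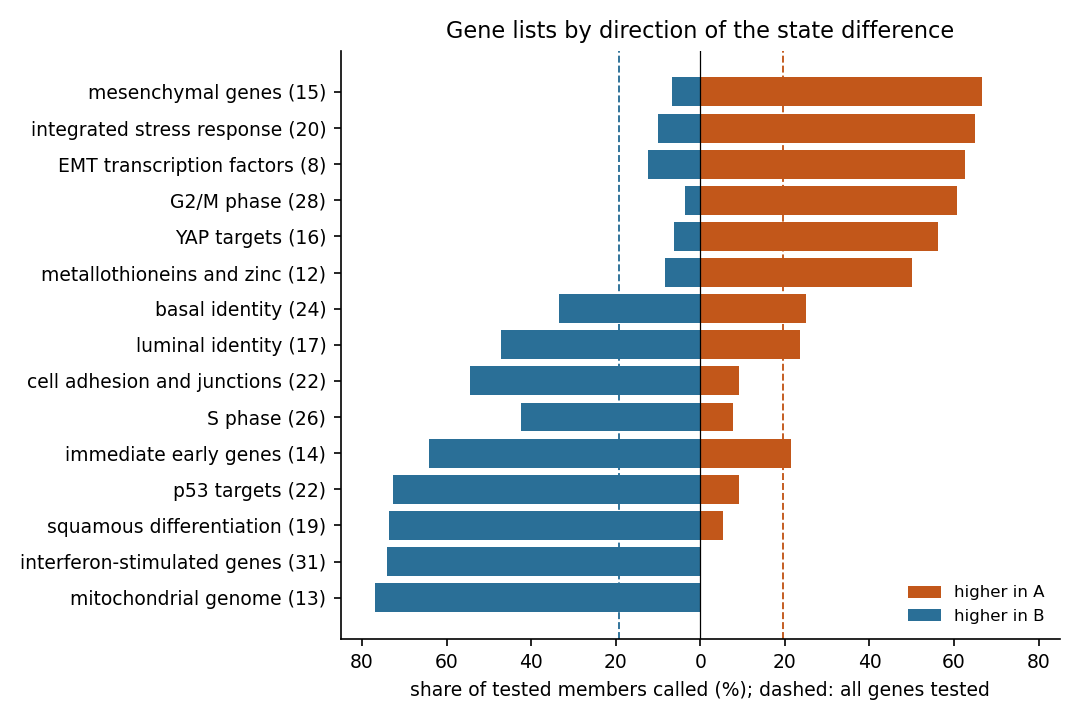
Share of tested members called higher in A (orange, to the right) and higher in B (blue, to the left) for 15 of the 39 gene lists, in percent, with the number tested in brackets; dashed lines mark 19.6 and 19.2% for all genes tested. Mesenchymal genes reach 66.7% higher in A, and interferon-stimulated genes 74.2% and the mitochondrial genome 76.9% higher in B.

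Other genes of the pathways to which the gate genes belong were called in both directions. Among the lists that follow here, prostaglandin genes had the largest share in 1 direction, 40.0% higher in B. The list of metal genes, to which MT1G belongs and which is described above, had a larger share, higher in A. For CYP1B1, a target of the aryl hydrocarbon receptor AHR, 4 of 13 other genes of that pathway were higher in B and 2 in A. UGT1A6, a drug-conjugating enzyme, was higher in B by 1.29 on the log2 scale. CYP1A1, the classic AHR target, had a log2 fold change of −0.63 (edgeR adjusted p = 0.0063), with 8.70 ± 4.70 CPM in A and 13.4 ± 5.36 in B. That call was lost when CYP1B1 was left out of the gate, where the value was 0.27 (edgeR adjusted p = 0.37), and also without library 2 or library 3. For FST, 6 of 18 genes of activin and BMP signalling were higher in each state, with ID1, a BMP target, at 16.3 ± 1.83 against 27.7 ± 5.69 CPM. For PTGS1, 1 of 10 prostaglandin genes was higher in A and 4 in B, with PTGES, prostaglandin E synthase, at 100.3 ± 8.21 against 148 ± 30.9 CPM. For TNFRSF6B, 3 of 17 genes of the TNF superfamily were higher in each state, and CD40 had a log2 fold change of 0.70. For SPP1, 1 of 8 receptor genes was higher in A and 2 in B, with its receptor CD44 at 151 ± 11.7 against 182 ± 11.2 CPM. For RAB38, 7 of 18 genes of melanosome and lysosome transport were higher in A and 5 in B, and its close relative RAB32 had a log2 fold change of 0.59 while RAB27B had one of −0.76. For STON2, 2 of 19 endocytic adaptors were higher in A and 5 in B. TGF-β signalling and its targets, of which 6 of 22 were higher in A and 4 in B, were near the background, with PMEPA1, a target that restrains the pathway, at 90.3 ± 20.9 against 55.3 ± 18.6 CPM.

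For most genes with a large change, the mixed cells lay between the states. Of the 381 genes with a change of at least 1 on the log2 scale, 368 (96.6%) had a mean level in mixed cells between those of A and B, and 231 were nearer to A. The same gate defined the mixed cells, and these genes were chosen for a large gap, so the count is a description and no test. The share over all tested genes is not given here. The low cells lay between for 192 (50.4%). DKK1 was at 90.9 CPM in mixed cells, S100A9 at 108 and CDKN1A at 267. Thinned cells with at least 3 UMIs of the gate were also ordered in 5 bins by the share of the A set among them, with 244, 269, 263, 558 and 955 cells. DKK1 rose over the bins from 42.2 through 64.3, 106 and 135 to 213 CPM, and VIM from 113 through 129, 247 and 278 to 347. In the other direction CDKN1A fell from 398 through 358, 241 and 176 to 148 CPM, and ISG15 from 265 through 258, 175 and 120 to 92.4. S100A9 was at 285 CPM in the first bin and 125, 104, 65.6 and 52.5 in the next, so its drop came mostly at the B end. S100A8 and IFIT1 were not ordered over the bins. Bins are described without a test.

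**Figure D4:**
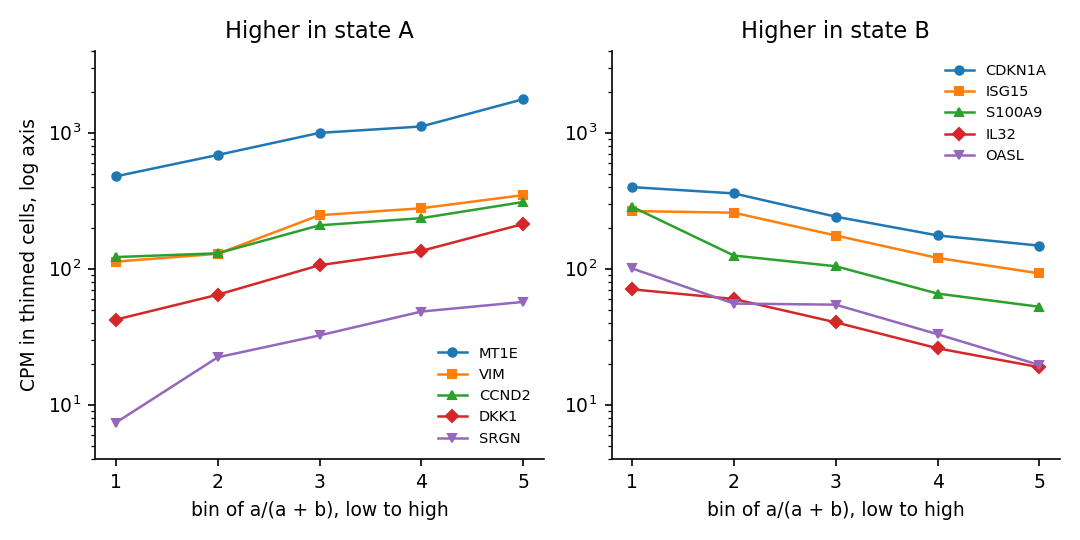
CPM of 10 genes in thinned SBO01 and SBO12 cells, on a log axis, over 5 bins of the share of A-set UMIs among gate UMIs, from the B end on the left to the A end on the right. DKK1 goes from 42.2 to 213 CPM and CDKN1A from 398 to 148, with intermediate levels in the middle bins.

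The state difference was compared between SBO01 and SBO12 with 2 libraries each. Of 12830 genes tested for the interaction, edgeR called 12 (0.0935%), 9 with the difference more towards A in SBO01 and 3 more towards A in SBO12, and 739 genes had an unadjusted p under 0.05. Without library 2 the count was 71. MT1X differed by 0.78 ± 0.08, with log2 fold changes of 1.59 in SBO01 and 0.81 in SBO12, and MT2A by 0.48 ± 0.05, with 0.82 and 0.34. KRT14 was −0.12 in SBO01 and −0.60 in SBO12, and KRT17 was −0.45 and −0.87. SERPINB2, an inhibitor of plasminogen activators, was −0.56 and −1.98. MDM2 and CDKN1A were lower in A by more in SBO01, at −1.40 against −0.40 and −1.61 against −0.95. In cells whose own barcode was highest 0 genes passed by edgeR's test, with 621 at an unadjusted p under 0.05, and DESeq2 called 3 on all cells. In that subset MT1X differed by 0.69 (edgeR adjusted p = 0.13), KRT14 by 0.32, SERPINB2 by 1.30 (from 1.43), MDM2 by −1.21 (from −0.99) and CDKN1A by −0.77 (from −0.65). A p that misses the threshold does not show that the populations are alike.

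The same gate found 2505 state A and 1202 state B cells among the other 10 populations. Of the 381 genes, 375 were tested there, 346 had the same sign and 267 were called with the same sign. The share of all genes called in that fit is not given here, so list counts from it stand without a background. Of 13926 genes tested for the interaction of state with population class, edgeR called 1144 (8.21%), 537 more towards A in SBO01 and SBO12 and 607 more towards A in the others. DESeq2 called 154 and 473, with 8100 genes left without an adjusted p. Without SBO05 among the others the counts were 436 and 883. With each barcode population as its own block, an alternative added after the data were seen, they were 275 and 342.

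Squamous genes separated the states in both classes. S100A8 had log2 fold changes of −2.53 in SBO01 and SBO12 and −2.68 in the others, and the list's medians were −1.13 and −1.45. The p53 list had medians of −0.45 and −0.35, and junction genes −0.32 and −0.30. Of 21 squamous genes tested for the interaction, 4 were called more towards A in SBO01 and SBO12 and 1 more towards B. S100A7 was at −3.01 and −5.17, an interaction of 2.07 ± 0.52 that passed neither with populations as blocks (edgeR adjusted p = 0.49) nor in cells whose own barcode was highest (adjusted p = 0.051).

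Interferon-stimulated genes separated the states more in SBO01 and SBO12 than elsewhere. The list's median was −0.57 in them and −0.13 in the others. In the others 4 of 32 genes were higher in A and 16 in B, without a share over all genes beside these counts. Of the 32 genes, 15 had a called interaction, all more towards B in SBO01 and SBO12. IFIT1 averaged 144 CPM in A and 131 in B of the others, against 18.6 and 55.0 here, an interaction of −1.75 ± 0.20 (edgeR adjusted p = 1.7e-05). It was −1.64 with populations as blocks and −1.54 in cells whose own barcode was highest. Interactions of OASL, IFI44 and ISG15 were −1.63, −1.54 and −1.27. IFIT1 pooled over the other populations was thus higher than here in both states, with a log2 fold change of 0.22 between their A and B. This does not hold for the list in each of those populations. Over all their cells, SBO05, SBO09 and SBO10 had list medians about level with state B, as given above.

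DKK1 and SRGN also differed more here, with interactions of 0.93 ± 0.17 and 1.12 ± 0.23, and KRTCAP3, a keratinocyte-associated membrane protein, with 0.91 ± 0.12. All 3 passed with populations as blocks and in cells whose own barcode was highest. Without SBO05 among the others all 3 still passed, at smaller values of 0.57 for DKK1 and 0.66 for SRGN and at 0.93 for KRTCAP3. KRT18 had 0.43 ± 0.05, and SPARC 0.62 ± 0.07. VIM had an interaction of 0.99 ± 0.34 that was not called (adjusted p = 0.072) and that was −0.0006 without SBO05, whose VIM level is high. S100A2, a basal calcium-binding protein, was lower in A here by 0.22 and higher in A elsewhere by 0.43. Genes of the mitochondrial genome were higher in B here for 10 of 13. Elsewhere 4 of 13 were higher in A, a count without a share over all genes beside it. Interactions were called for 10 of the 13. The plot of fold changes inside and outside the 2 populations shows these genes off the diagonal.

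**Figure D5:**
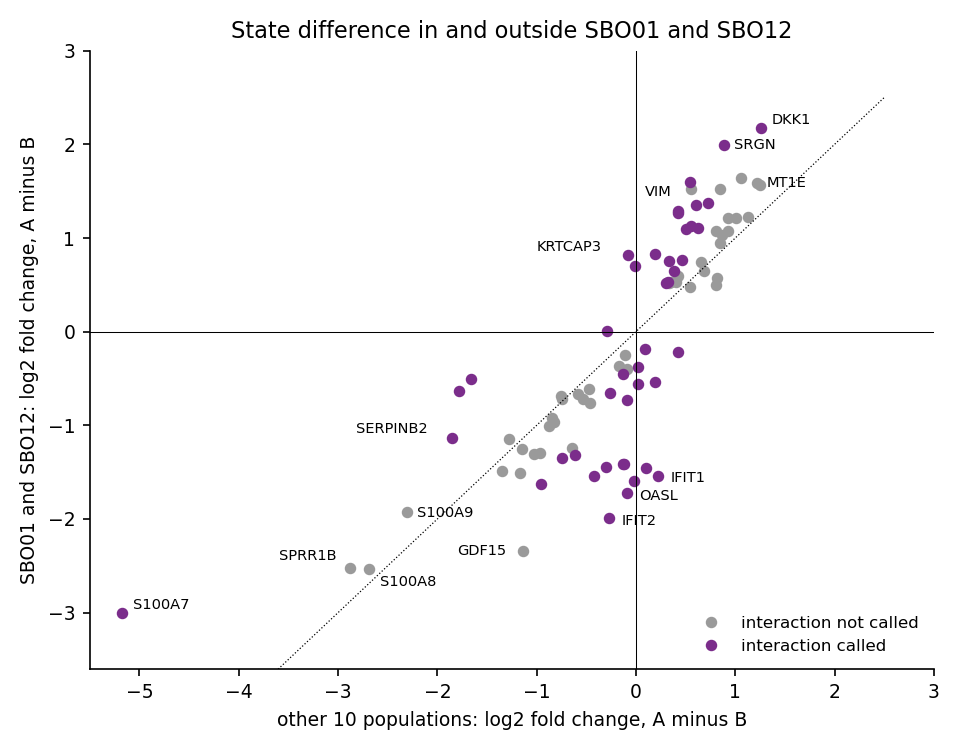
Log2 fold change of A minus B in SBO01 and SBO12 (vertical) against the other 10 populations (horizontal) for 87 genes; purple points have a called interaction and the dotted line marks equal values. IFIT1 lies at 0.22 and −1.54, SRGN at 0.89 and 2.00, and S100A8 near the line at −2.68 and −2.53.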

How the data were processed

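The authors deposited 1 matrix of unnormalized UMI counts per mRNA library, holding genes and sample barcodes, per the file headers. Cell Ranger 6.0.2, Seurat 4.1.0, bcl2fastq 2.20.0.422 and hg38 are named per the submitters' processing notes. The annotation release and any filter before deposit were not given in the sources used here. Per the labels' protocols cells were barcoded and pooled before loading on a 5′ kit, so a count stands for molecules captured at transcript starts. The barcode sequences are those of the deposited feature list.

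Kept cells had 1000 or more genes and no more than 15% mitochondrial UMIs, 7600, 5118, 5304 and 4125 in libraries 1 to 4, with median UMIs of 22198.5 to 38051. HTODemux (Seurat 5.3.0, quantile 0.99) assigned barcodes in 1 library at a time over the 6 of its pool; cells with several barcodes were left out as doublets, no other doublet caller was run, and pairs of cells from 1 sample stay in. The 9 gate genes were kept out of the tests. UMIs were summed per library and state, filtered with filterByExpr, scaled by TMM and tested with edgeR 4.0.16 in R 4.3.3 (limma 3.58.1 below it), with library as a block because both states share it, at an adjusted p of 0.05 over all genes. The common biological coefficient of variation was 4.34%. The script was tested on simulated data. DESeq2 1.42.0 and the other alternatives are in the closing section.

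The members and gene lists were chosen with earlier results of these data known. Genes were named by rule: the gate; of genes with at least 20 CPM, adjusted p under 0.05 and 1 direction in 4 libraries, the 15 largest changes each way; per list up to 4 called members of at least 5 CPM and the most abundant; and the 5 largest interactions each way. From the 191 genes so named, 87 were used; COL6A1, COL6A2 and TAGLN fall outside the rule. Gene coordinates are GENCODE 29. Thinned cells were drawn to 10000 UMIs, which 38 state A and 18 state B cells did not reach.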

Additional observations from a re-analysis of the deposited data

Results flagged for a closer look

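Among 174 groups of 4 library values, 2 held a value far from the other 3 relative to the range of all 4. SNAI2 was at 31.1 CPM in state A of library 3, and C15orf48 at 63.3 CPM in state A of library 1. The 4 values of SNAI2 lay close together, so its gap was small in CPM. Chance alone puts about 1 in 20 groups past that limit, so 2 of 174 is fewer than chance gives.

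For 9 named genes the difference between state A and state B itself differed between SBO01 and SBO12 in edgeR's interaction test. On the log2 scale, as SBO01 minus SBO12, the differences were MDM2 -0.99, CDKN1A -0.65, KRT17 0.43, MT1E 0.47, KRT14 0.48, MT2A 0.48, MFAP5 0.61, MT1X 0.78 and SERPINB2 1.43. All 9 lost the call in cells whose assigned barcode was highest, where the differences were SERPINB2 1.30, MT1X 0.69, MFAP5 0.45, KRT17 0.41, MT1E 0.39, MT2A 0.35, KRT14 0.32, CDKN1A -0.77 and MDM2 -1.21.

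For 43 named genes the state difference in SBO01 and SBO12 differed from that in the other 10 populations. Differences more towards B in SBO01 and SBO12, on the log2 scale, were IFIT1 -1.75, IFIT2 -1.71, OASL -1.63, IFIT3 -1.57, IFI44 -1.54, DDX58 -1.27, ISG15 -1.27, DDX60 -1.13, KRT86 -1.11, PTGES -0.71, BTG2 -0.69, IL32 -0.65, ID1 -0.63, S100A2 -0.63, HES4 -0.58, JUNB -0.56, PCNA -0.39, MT-CYB -0.38, MCM3 -0.30 and MT-CO1 -0.26. Interferon-stimulated genes made up the first of these. Differences more towards A were PSAT1 0.23, CDK1 0.23, SHMT2 0.28, FN1 0.32, DDIT4 0.32, KRT18 0.43, THBS1 0.50, FKBP11 0.60, SPARC 0.61, DUSP5 0.65, CYGB 0.66, CD40 0.72, SERPINB2 0.75, MEST 0.76, BCAT1 0.86, TWIST1 0.88, KRTCAP3 0.91, DKK1 0.93, THY1 1.06, SRGN 1.12, C15orf48 1.17, CYP1A1 1.17 and S100A7 2.07. Of the 43 genes, 19 kept the call under every alternative run.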

How the results depend on the processing

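Of 2083 values of 87 named genes under the alternatives, 2055 kept their side of the threshold, 13 lost the call and 14 gained one. All 14 gains were of C15orf48, which was not called in the main fit but passed as higher in B under 14 of 24 alternatives. Direction was compared for genes called in the main fit, and 1 value of these changed sign. It was CYP1A1, at 0.27 on the log2 scale with CYP1B1 left out of the gate. FN1, which was not called, also changed sign, from 0.01 to −0.04 with MT1G left out of the gate and to −0.08 with TNFRSF6B left out. With 1 library left out it ran from −0.04 to 0.07. The counts of genes higher in A and in B, 2422 and 2364, were 1331 and 1193 with DESeq2, 1520 and 1255 in SBO01 alone, 1575 and 1512 in SBO12 alone, 880 and 902 in thinned cells, and 1490 and 1383 in cells whose assigned barcode was highest. Leaving out 1 library gave 1939 to 2173 and 1845 to 2157. The 163 genes at least 1 higher in A on the log2 scale became 262 with no filter on low counts, 249 with the libraries of a pool summed, 64 in thinned cells (102 in B, from 218) and 107 with TNFRSF6B left out of the gate. With 1 library left out they were 162 to 182, and those of B 198 to 273. The fits pair the states within a library; with no replicate block the counts were 1737 and 1793, with 373 of the 381 larger changes still called in the same direction, and the SBO01 against SBO12 interaction gave 2 genes.

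That interaction, with 12 genes, gave 3 with DESeq2, 59 with no filter, 7 with the stricter gate and 0 in cells whose assigned barcode was highest. It gave 7 without library 3 and 71 without library 2. The interaction with the other populations, with 1144 genes, gave 627 with DESeq2, 120 in thinned cells, 745 with the stricter gate, 618 in cells whose assigned barcode was highest, 617 with each barcode population as a block, and 580 without library 2 to 955 without library 1. State A made up 42.8% of SBO01 and 31.7% of SBO12 with the stricter gate and 54.1 and 42.7% in thinned cells, and state B 8.85 and 9.21%, and 12.9 and 12.2%. In SBO12 cells whose assigned barcode was highest they were 61.6 and 12.8%. Fewer cells or counts enter the thinned, stricter and barcode subsets; the cause of the other changes was not tested. A planned filter to cells with at most 2 UMIs of cycling genes could not be run, since it left at most 1 state A cell in a library.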

Other observations

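Of 13 genes of the FGF pathway, edgeR called 5 higher in A and 0 higher in B (6 and 1 at an unadjusted p under 0.05, 4 and 0 with DESeq2). Of 24 genes of EGFR ligands and MAPK feedback, 8 were higher in A and 3 in B, among them EGFR, the receptor itself, at 90.2 ± 11.2 CPM in A and 64.1 ± 7.30 in B (SD, n = 4 libraries). Of 10 genes of the IGF axis 5 were higher in A and 2 in B, with a median log2 fold change of 0.45. Targets of NRF2, the oxidative stress factor, went the other way, with 11 of 23 higher in B and 5 in A. Cholesterol synthesis genes gave no single direction in SBO01 and SBO12, with 7 of 21 higher in A and 6 in B. In the other populations 13 of the 21 were higher in A and 0 in B by edgeR's test, without a share over all genes beside it. Of the 21 genes, 9 had a called interaction.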
